A study of Mus musculus with 14 samples.

Results

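The genes described here are the interleukin-1 ligands, their natural antagonist, and their receptors and decoy receptor. They were taken by symbol: a probe set belongs to the set where its platform gene symbol is exactly Il1a, Il1b, Il1rn, Il1r1, Il1r2, Il1rap, Il1rl1, Il18 or Il33. Of these 9 genes, 8 had a probe set, out of 18193 gene symbols on the array, and together they held 15 probe sets. No probe set carried the symbol Il1rl1, the receptor for interleukin-33, so that gene was not analysed here. Il1a was measured but was too dim to enter the test, which left 7 genes in it.

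The study measured RNA of 2 stromal populations sorted from the bone marrow of wild-type C57BL/6J mice aged 6 to 8 weeks, on 14 Affymetrix arrays. All mice, controls included, were of the pOBcol2.3-GFP line, which expresses green fluorescent protein under part of a collagen type I promoter that is active in the osteoblast lineage. The osteoblast sort was negative for CD45, ter119 and CD31 and positive for GFP, with 3 arrays from untreated mice and 3 from mice given granulocyte colony-stimulating factor (G-CSF). The endothelial sort was negative for CD45, ter119 and GFP and positive for CD31, with 4 arrays in each state. G-CSF was injected under the skin at 250 ug/kg for 5 days, by both the titles and the treatment protocol of the G-CSF samples. The protocol that accompanies the untreated samples gives 7 days, and controls received vehicle. The labels do not say whether an array is 1 mouse or a pool, so p-values measure the spread between these arrays, which may be technical. The GFP gate rests on promoter activity and CD31 is also carried by megakaryocytes and some leukocytes, so each sort is defined by its gate.

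Interleukin-1 alpha and interleukin-1 beta are inflammatory cytokines that act through the same receptor, Il1r1, which signals only once the accessory protein Il1rap has joined it. Natural brakes sit on that receptor step. The antagonist Il1rn occupies Il1r1 without recruiting Il1rap, and the decoy Il1r2 binds ligand but lacks the intracellular signalling domain. In bone marrow, neutrophils and monocytes are known sources of interleukin-1 beta, neutrophils carry much decoy receptor, and stromal cells carry Il1r1.

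Values are given as log2 of the deposited intensity plus 16, a scale on which changes of dim genes are understated, and levels are compared only within a probe set. A change was called where the Benjamini-Hochberg adjusted p of limma's moderated test over 13453 genes was under 0.05, and each error of a change is its standard error. The deposited intensities had been brought to a common level, with trimmed means from 498.7 to 500.0, and the ratio of the 3' to the 5' probe sets of actin, a measure of RNA degradation, ran from 2.62 to 11.03 and was highest on replicate 3 of both osteoblast groups. All 11 endothelial marker genes were called lower in the osteoblast sort in both states. Of 7 osteoblast markers tested, 1 was called higher in the osteoblast sort untreated and 7 after G-CSF. Of all 13453 genes, 1831 were called higher and 1722 lower in that sort untreated, and 2351 and 1936 after G-CSF. The median change of the 7 osteoblast markers with G-CSF was 0.03 in the osteoblast and -1.59 in the endothelial sort. Neutrophil genes were measured on every array despite the CD45 gate, at mean log2 levels from 10.37 to 13.48. An array that stood apart was replicate 2 of the untreated osteoblast sort, whose 11 neutrophil genes summed to an intensity of 254417, against 57493 and 44359 on the other two arrays of its group. Another was replicate 1 of the untreated endothelial sort, whose 6 skeletal muscle genes summed to 73836, against 2400 to 4920 on the rest of its group. Both were left out together in 1 of the alternative settings.

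G-CSF arrays carried more Il1r2, the decoy receptor, than untreated arrays in both sorts, and it was the only gene of the set called for G-CSF in either. It rose 7.10-fold in the osteoblast sort and 5.79-fold in the endothelial sort. That was 1 of 7 tested genes higher in each sort, where 0.186% of all genes were called higher and 0.0446% lower in the osteoblast sort, and 0.453% higher and 1.14% lower in the endothelial sort. Il1b was 3.73-fold and 3.30-fold higher on average but did not pass the test. In such bulk RNA, more cells of a type and more RNA per cell cannot be told apart, and the levels of neutrophil genes are given further on. The median change over the 7 genes was 0.86 in the osteoblast sort and 0.35 in the endothelial sort, beside -0.04 and -0.05 over all genes tested.

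**Figure D1:**
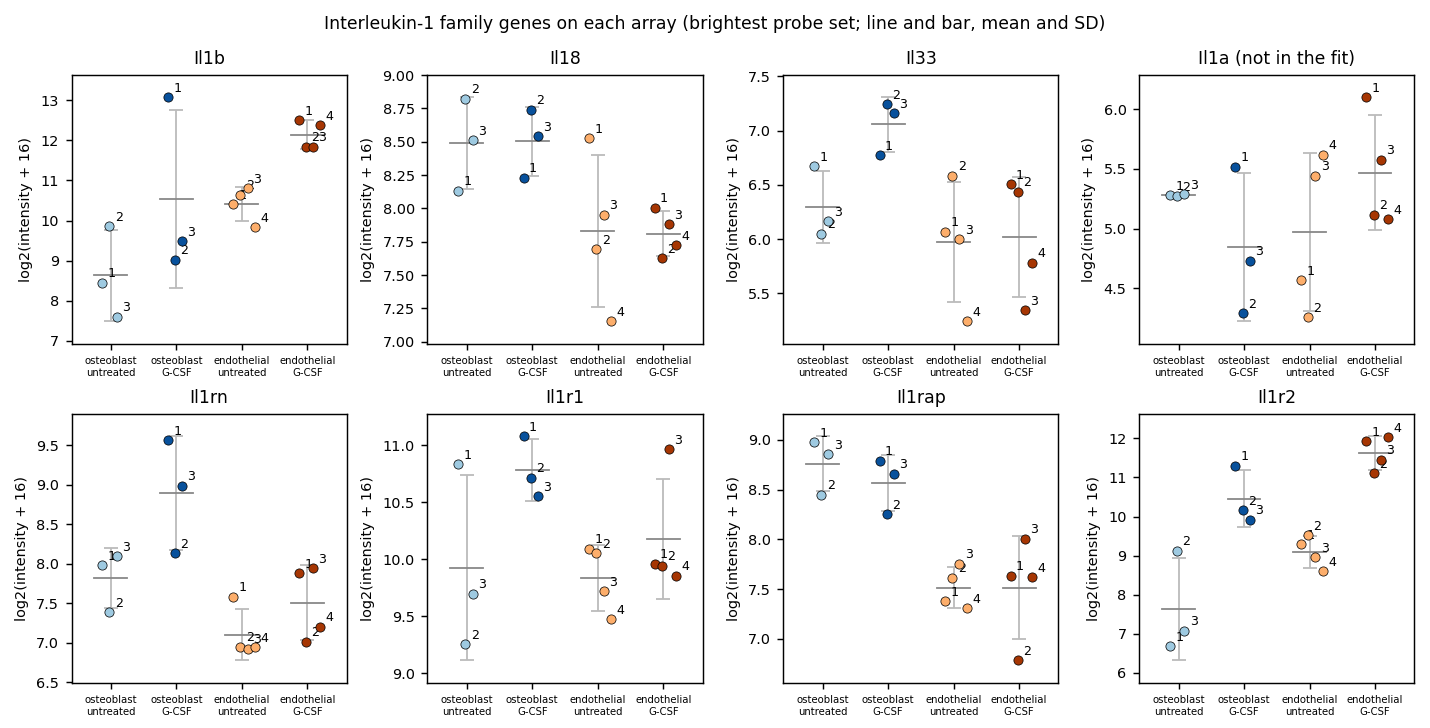
Level of each gene on each array (vertical axis, log2 of intensity plus 16) in the 4 groups, with points numbered by replicate, the horizontal line at the mean and the bar 1 SD each way. The Il1r2 points of the G-CSF arrays lie above those of the untreated arrays in both sorts, while Il18 and Il1rap separate the sorts more than the treatment.

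Il1b encodes interleukin-1 beta, made as an inactive precursor that inflammasome caspases cut. In the osteoblast sort its deposited intensity was 332.2, 910.5 and 177.4 on the untreated arrays and 8658, 505.9 and 698.1 on the G-CSF arrays. One G-CSF array was far above the rest, and the others lay inside the untreated range. On the log2 scale the means were 8.63 ± 1.14 (SD, n = 3) untreated and 10.53 ± 2.22 (SD, n = 3) with G-CSF, a difference of 1.90 ± 0.79 with a limma adjusted p of 0.476. Without that array, replicate 1 of the G-CSF osteoblast sort, the difference was 0.62.

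In the endothelial sort Il1b stood at 1343, 1587, 1766 and 895.2 untreated and at 5815, 3654, 3645 and 5315 with G-CSF. Every G-CSF array was above every untreated one. The log2 means were 10.42 ± 0.43 and 12.14 ± 0.35 (SD, n = 4 each), a difference of 1.72 ± 0.68 with a limma adjusted p of 0.265, in a fit whose spread is shared by all 4 groups. With the 8 endothelial arrays fitted alone the adjusted p was 0.00516, and without replicate 1 of the G-CSF osteoblast sort it was 0.044. Paired by replicate number, the endothelial differences were 2.10, 1.2, 1.04 and 2.55, and those of the osteoblast sort were 4.64, -0.83 and 1.89.

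From low to high, the order of the Il1b means was untreated osteoblast, untreated endothelial, G-CSF osteoblast and G-CSF endothelial sort, and no neighbouring pair that was tested passed. The osteoblast sort stood -1.79 ± 0.74 from the endothelial sort untreated (limma adjusted p = 0.0909) and -1.61 ± 0.74 after G-CSF (limma adjusted p = 0.113). The second difference passed when each array was centred on its median, at -2.0 with an adjusted p of 0.0455, and without replicate 1 of the G-CSF osteoblast sort, at -2.89 with an adjusted p of 0.000443. The first passed with only the untreated arrays fitted (adjusted p = 0.0248), without replicate 2 of the untreated osteoblast sort and without replicate 1 of the G-CSF osteoblast sort. The adjusted p with a single array left out ran from 0.00573 to 0.318.

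Il1a, the other agonist, whose precursor is active without cleavage, was near the floor of the array. Its mean over all arrays was 5.15, under the value of 5.78 below which probe sets were left out of the fit. Single arrays ran from 4.26 in the untreated endothelial sort to 6.10 in the G-CSF endothelial sort, and all 4 groups overlapped.

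Il18, an interferon-gamma-inducing cytokine that matures through the same caspase as interleukin-1 beta, differed by 0.01 ± 0.31 between G-CSF and untreated in the osteoblast sort and by -0.02 ± 0.27 in the endothelial sort. Its levels were 8.13, 8.82 and 8.51 untreated and 8.23, 8.74 and 8.54 with G-CSF in the osteoblast sort. In the endothelial sort they were 8.53, 7.69, 7.95 and 7.15 untreated and 8.00, 7.62, 7.88 and 7.72 with G-CSF. The treatment groups overlapped in both sorts, and among G-CSF arrays every osteoblast array was above every endothelial one. The sorts differed by 0.66 ± 0.29 untreated (limma adjusted p = 0.11) and by 0.70 ± 0.29 after G-CSF (limma adjusted p = 0.0799).

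Il33 encodes interleukin-33, a nuclear alarmin released from damaged stromal and endothelial cells. It was dim, with osteoblast values of 6.67, 6.05 and 6.17 untreated and 6.77, 7.24 and 7.16 with G-CSF. The G-CSF osteoblast arrays lay above all others of that sort, but the difference of 0.76 ± 0.39 had a limma adjusted p of 0.613. Endothelial values were 6.07, 6.59, 6.00 and 5.24 untreated and 6.5, 6.44, 5.35 and 5.78 with G-CSF, groups that overlapped.

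After G-CSF, Il33 was 2.06-fold higher in the osteoblast than in the endothelial sort, a log2 difference of 1.04 ± 0.36 with a limma adjusted p of 0.0402. This call was held in 13 of 25 settings. It ended with median centring (0.66, adjusted p = 0.174) and with quantile normalisation (0.67, adjusted p = 0.197). With the replicate number as a block across the sorts it was 0.88, with an adjusted p of 0.0746. Leaving out 1 array ended it in 5 of 14 cases, namely replicates 2 and 3 of the G-CSF osteoblast sort, replicate 3 of the untreated endothelial sort and replicates 3 and 4 of the G-CSF endothelial sort, with an adjusted p of at most 0.118. Untreated, the sorts differed by 0.32 ± 0.36 and overlapped.

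Il1rn, the receptor antagonist, was brightest on the G-CSF osteoblast arrays. Its values were 7.98, 7.39 and 8.09 on the untreated and 9.56, 8.13 and 8.99 on the G-CSF osteoblast arrays, and the 2 groups did not overlap, although the lowest G-CSF value lay just above the highest untreated one. The difference was 1.07 ± 0.37, with a limma adjusted p of 0.351. In the endothelial sort the arrays stood at 7.58, 6.95, 6.92 and 6.94 untreated and at 7.88, 7.01, 7.94 and 7.20 with G-CSF, and overlapped, with a difference of 0.41 ± 0.32. In the osteoblast sort Il1rn, Il33 and Il1r2 were the 3 of 7 genes whose G-CSF arrays all lay above the untreated ones, a pattern seen in 3.61% of all genes. In the endothelial sort Il1b and Il1r2 were the 2 of 7, beside 4.65% of all genes. For Il1rn this held on its brightest probe set only. A second one that passed the filter ran from 7.14 to 7.98 on untreated and from 7.20 to 8.98 on G-CSF osteoblast arrays, and overlapped.

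Between the G-CSF sorts Il1rn was 2.61-fold higher in the osteoblast sort. The log2 difference was 1.39 ± 0.35 with a limma adjusted p of 0.00644, and the groups did not overlap. The call was held in 26 of 26 settings. Beside this and the Il33 call, the summed intensity of the 7 osteoblast markers ran from 167156 to 193630 on G-CSF osteoblast arrays and from 19616 to 89783 on G-CSF endothelial arrays. On untreated endothelial arrays it ran from 82196 to 145659. Between the G-CSF sorts the median difference was 3.08 for these markers and 3.71 for 7 fibroblast and tendon genes. By limma 7 and 5 of them were called higher in the osteoblast sort, as were 2351 of all 13453 genes tested. The part of either list in the Il1rn and Il33 calls was not tested. Untreated, the Il1rn difference of 0.72 ± 0.35 had a limma adjusted p of 0.145. The second Il1rn probe set gave 1.08 ± 0.43 between the G-CSF sorts, with a limma adjusted p of 0.0941 when all probe sets were fitted singly. It had the same direction, but its groups overlapped and it was not called.

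Il1r1 is the signalling receptor for both interleukin-1 agonists. Osteoblast arrays stood at 10.83, 9.25 and 9.69 untreated and at 11.08, 10.71 and 10.55 with G-CSF. Only untreated replicate 1 reached the G-CSF range. The difference was 0.86 ± 0.37, with a limma adjusted p of 0.504. Endothelial arrays stood at 10.09, 10.05, 9.72 and 9.47 untreated and at 9.96, 9.94, 10.97 and 9.85 with G-CSF, overlapping groups that differed by 0.35 ± 0.32. The sorts differed by 0.09 ± 0.35 untreated and by 0.60 ± 0.35 after G-CSF, neither of them called, and no order of the 4 group means was resolved beyond the spread.

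Il1rap, the accessory chain shared by the receptors for interleukin-1, interleukin-33 and interleukin-36, differed between the sorts and not detectably with G-CSF. On its brightest probe set the osteoblast arrays stood at 8.97, 8.45 and 8.86 untreated and at 8.79, 8.25 and 8.66 with G-CSF. The endothelial arrays stood at 7.38, 7.61, 7.75 and 7.31 untreated and at 7.64, 6.78, 8.01 and 7.62 with G-CSF. Every osteoblast array was above every endothelial array.

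Untreated, Il1rap was 2.37-fold higher in the osteoblast sort (log2 difference 1.25 ± 0.28, limma adjusted p = 0.00356), and after G-CSF it was 2.08-fold higher (1.06 ± 0.28, limma adjusted p = 0.00843). The untreated call was held in all 26 settings, and the other in 25 of 26. The exception was the mean of the probe sets, where the G-CSF difference was 0.41 with an adjusted p of 0.31. Its probe sets disagreed there: 2 further ones that passed the filter differed by 0.08 ± 0.46 and 0.09 ± 0.36 between the G-CSF sorts. Between the untreated sorts the same 2 differed by 1.13 ± 0.46 and 0.43 ± 0.36. With all probe sets fitted singly, their untreated limma adjusted p was 0.107 and 0.483, so neither was called. One of them was higher on all 4 G-CSF endothelial arrays than on the untreated ones (6.03 ± 0.29 and 6.98 ± 0.25, SD, n = 4 each), with a limma adjusted p of 0.289 when all probe sets were fitted singly. G-CSF changed the brightest probe set by -0.19 ± 0.29 in the osteoblast and -0.00 ± 0.26 in the endothelial sort.

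Il1r2, the decoy receptor, gave the clearest treatment difference. In the osteoblast sort its deposited intensity was 87.1, 544.3 and 119.1 untreated and 2504, 1127 and 953.8 with G-CSF. All G-CSF arrays were above all untreated ones, and untreated replicate 2 was the highest of its group. The log2 means were 7.63 ± 1.31 and 10.46 ± 0.74 (SD, n = 3 each), a rise of 2.83 ± 0.52 with a 95% confidence interval from 1.71 to 3.94 and a limma adjusted p of 0.0418. By replicate number the rises were 4.61, 1.03 and 2.84.

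This osteoblast call was close to the threshold. It was held in 10 of 27 settings, and leaving out 1 array ended it in 12 of 14 cases. The exceptions were replicate 2 of the untreated osteoblast sort (3.58, adjusted p = 0.00014) and replicate 2 of the G-CSF endothelial sort. The highest adjusted p, 0.191, came without replicate 3 of the untreated osteoblast sort. With the replicate number as a block within each sort the adjusted p was 0.0672, with the number of printed decimals as a batch term it was 0.0528, and with the 6 osteoblast arrays alone it was 0.461. The rise ran from 2.36 to 3.58 over all settings.

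In the endothelial sort Il1r2 stood at 609.9, 722.1, 482.0 and 372.1 untreated and at 3872, 2187, 2787 and 4151 with G-CSF. The 2 groups were far apart. The log2 means were 9.09 ± 0.40 and 11.63 ± 0.43 (SD, n = 4 each), a rise of 2.53 ± 0.45 with a limma adjusted p of 0.0182. The replicate-number differences were 2.64, 1.58, 2.49 and 3.42. The call was held in 24 of 27 settings and ended without untreated endothelial replicate 1 (adjusted p = 0.055), 3 (0.0702) or 4 (0.0588).

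The G-CSF change of Il1r2 was not shown to differ between the sorts. The osteoblast change minus the endothelial change was 0.30 ± 0.69, with a 95% confidence interval from -1.18 to 1.77, and for Il1b it was 0.18 ± 1.05, from -2.05 to 2.41. With 1 array left out these differences ran from -0.18 to 1.04 and from -1.10 to 0.93, so neither direction held. The Il1r2 extremes came without untreated osteoblast replicates 1 and 2, and those of Il1b without G-CSF osteoblast replicates 1 and 2. None of the 7 genes was called for this difference by limma, 0 passed at an unadjusted p under 0.05, beside 0% and 4.62% of all genes.

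**Figure D2:**
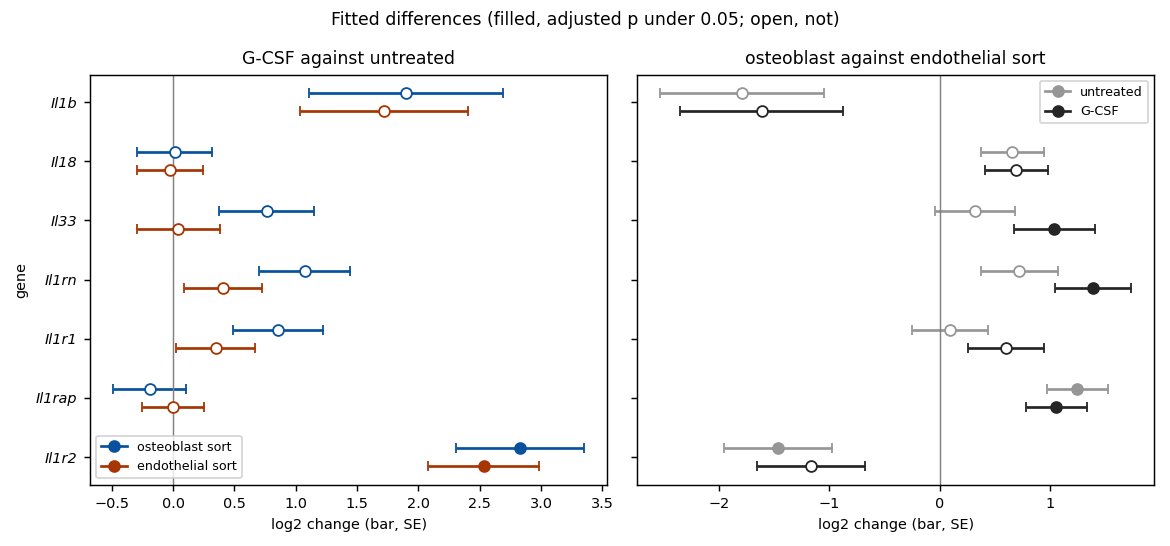
Fitted log2 change of the 7 tested genes (horizontal axis; bar, 1 standard error each way), with G-CSF against untreated in each sort on the left and the osteoblast against the endothelial sort in each state on the right; filled points were called. Il1r2 is the only filled gene on the left, at 2.83 and 2.53, and Il1rap is filled in both states on the right.

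Of the 7 genes, 2 were called between the untreated sorts, beside 26.4% of all genes, and 3 between the G-CSF sorts, beside 31.9% of all genes. With so few genes, these counts lie near the background. Osteoblast arrays lay wholly above endothelial arrays for 1 of the 7 genes untreated, Il1rap, beside 16.7% of all genes, and for 4 after G-CSF, Il18, Il33, Il1rn and Il1rap, beside 21.4%. Il1r2 was the untreated gene lower in the osteoblast sort, by -1.46 ± 0.49 (2.76-fold lower, limma adjusted p = 0.0384), and Il1rap the one higher. The 11 neutrophil genes had a median difference of -0.84 between the untreated sorts and -0.01 between the G-CSF sorts. Of them 0 and 5 were higher in the osteoblast sort, and 0 were called by limma in either state. Their part in the Il1r2 difference was not tested. The Il1r2 groups overlapped through replicate 2 of the untreated osteoblast sort, at 9.13. The call was held in 18 of 26 settings and ended without untreated osteoblast replicate 1 (adjusted p = 0.199) or 3 (0.155), or untreated endothelial replicate 1 (0.0791), 2 (0.095) or 3 (0.0603). Without untreated osteoblast replicate 2 the difference was -2.21. With the replicate number as a block across the sorts the adjusted p was 0.0541. It was 0.0992 with the number of printed decimals as a batch term and 0.079 with only the untreated arrays fitted. After G-CSF the Il1r2 difference was -1.17 ± 0.49 (limma adjusted p = 0.0835), and it passed with median centring, at -1.55 with an adjusted p of 0.0239. That centring moved the median of all genes from 0.02 to -0.36 in this comparison.

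The rising order of the Il1r2 group means was untreated osteoblast, untreated endothelial, G-CSF osteoblast and G-CSF endothelial sort. The middle pair did not overlap, at a highest of 9.53 and a lowest of 9.92, and was not a fitted comparison. The top pair overlapped.

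The promoters of Il1r2 and Il1b are shown because these 2 genes had the largest G-CSF differences of the set in both sorts. Each sequence is the 250 bases before the annotated start in RefSeq on GRCm38.p6, 5′ to 3′ on the gene's strand, with matches to the searched motifs in capitals. Il1r2 is at chr1:40085843-40086092 on the plus strand and Il1b at chr2:129371140-129371389 on the minus strand.
Il1r2: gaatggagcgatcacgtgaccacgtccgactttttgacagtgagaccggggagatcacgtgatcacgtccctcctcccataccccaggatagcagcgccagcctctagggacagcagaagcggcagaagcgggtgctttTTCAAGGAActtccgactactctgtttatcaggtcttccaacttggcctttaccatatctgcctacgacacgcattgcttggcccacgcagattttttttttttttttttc
Il1b: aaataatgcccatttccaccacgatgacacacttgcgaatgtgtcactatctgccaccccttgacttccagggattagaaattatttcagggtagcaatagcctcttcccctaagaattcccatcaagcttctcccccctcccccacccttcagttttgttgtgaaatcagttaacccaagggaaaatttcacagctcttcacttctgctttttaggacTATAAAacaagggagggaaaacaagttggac

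The motifs searched, on both strands, were the STAT motif TTCNNNGAA, the C/EBP motif TTGCNNAA, the PU.1 motif GAGGAA, the TATA motif TATAAA and the NF-kB motif. The Il1r2 window held 1 STAT match that begins 111 bases before the start, and 7.02% of 32851 promoter windows of this length held at least 1. The Il1b window held 1 TATA match, 31 bases before the start, as did 12.4% of windows. No other of these motifs matched in either window. In the annotation Il1r2, Il1r1, Il1rl2 and Il1rl1 lie next to each other on chromosome 1, and Il1a and Il1b are neighbours on chromosome 2. Within the chromosome 1 group Il1r2 was called with G-CSF and its neighbour Il1r1 was not.

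Neutrophils are known for high Il1b and Il1r2, and 11 of 13 listed neutrophil genes were measured. Their summed intensity ran from 44359 to 254417 on untreated and from 173024 to 238194 on G-CSF osteoblast arrays. On endothelial arrays it ran from 109857 to 175299 untreated and from 145722 to 206638 with G-CSF. The ranges of these sums overlapped in both sorts. By mean log2 level the osteoblast ranges, 10.37 to 13.20 untreated and 12.48 to 13.48 with G-CSF, overlapped through untreated replicate 2 only. The endothelial ranges by that measure, 11.65 to 12.56 untreated and 12.57 to 13.42 with G-CSF, did not overlap. The list's median G-CSF change was 1.66 in the osteoblast and 0.73 in the endothelial sort, with 0 of 11 genes called by limma in either and 9 and 4 at an unadjusted p under 0.05, beside 8.85% and 13.1% of all genes. None of the 11 was among the dimmest probe sets. The part of neutrophil RNA in the Il1r2 and Il1b differences was not tested.

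Some arrays, chosen after their values were seen, had like neutrophil levels. Untreated osteoblast replicate 2 had a mean neutrophil level of 13.20 with Il1r2 at 9.13 and Il1b at 9.86, while G-CSF osteoblast replicate 2 had 13.10 with Il1r2 at 10.16 and Il1b at 9.03. The G-CSF array was higher in Il1r2 and lower in Il1b, and the 2 arrays also differed in their sums of monocyte and macrophage genes (41548 and 25620) and of B lineage genes (7411 and 602). In the endothelial sort, untreated replicates 1 and 2 and G-CSF replicate 2 had mean neutrophil levels of 12.56, 12.56 and 12.57, with Il1r2 at 9.29, 9.53 and 11.10. Their Il1b levels were 10.41, 10.65 and 11.84. There the G-CSF array was higher in both genes, and the monocyte and macrophage sums were 23166, 20173 and 13497. These are single arrays, with no test.

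The 10 monocyte and macrophage genes summed to between 3830 and 41548 on untreated and between 10231 and 26485 on G-CSF osteoblast arrays. On endothelial arrays the sums ran from 11951 to 23585 untreated and from 13497 to 30574 with G-CSF. By limma 0 of the 10 were called with G-CSF in either sort, and 0 passed at an unadjusted p under 0.05. Their part in the Il1b differences was not tested.

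**Figure D3:**
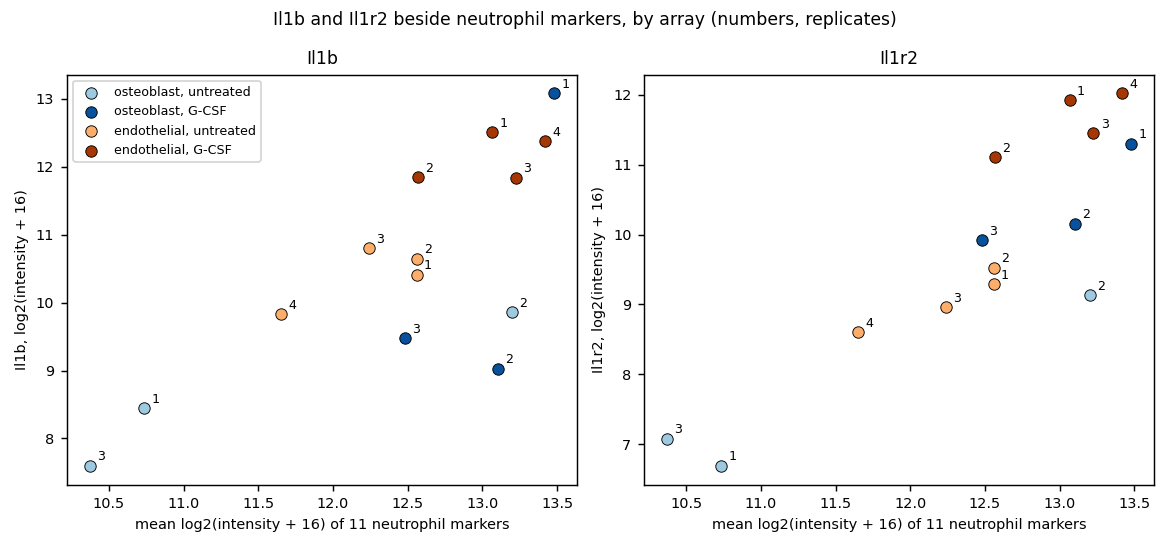
Il1b and Il1r2 levels (vertical axes, log2 of intensity plus 16) against the mean log2 level of 11 neutrophil genes (horizontal axis), 1 point for each of the 14 arrays, numbered by replicate. Untreated osteoblast replicate 2, at a neutrophil level of 13.20, has Il1r2 at 9.13, below all G-CSF arrays. It is a single array, picked after its values were seen, and the part of neutrophil RNA was not tested.

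The wider pathway was followed in 66 further genes, grouped by role, of which 53 entered the fit. With G-CSF 2 rose and 0 fell in the osteoblast sort, and 2 rose and 1 fell in the endothelial sort, beside 0.186% and 0.453% of all genes called higher and 0.0446% and 1.14% lower. The median change was 0.20 and 0.16, beside -0.04 and -0.05 over all genes. The rising genes were Saa3 and Myd88 in both sorts. Saa3, an acute-phase serum amyloid that interleukin-1 is known to induce, rose 9.31-fold in the osteoblast sort (3.22 ± 0.56, limma adjusted p = 0.0284), from a range of 8.13 to 9.07 to one of 10.95 to 12.30. That call was held in 21 of 27 settings. With 1 array left out, the call ended without untreated osteoblast replicate 1 or 3, G-CSF osteoblast replicate 1 or 2, or untreated endothelial replicate 3, with an adjusted p of at most 0.169. In the endothelial sort Saa3 rose by 4.32 ± 0.48 (limma adjusted p = 0.00104).

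Myd88, the adaptor that carries the signal from interleukin-1 and Toll-like receptors, rose 2.27-fold in the endothelial sort (1.18 ± 0.15, limma adjusted p = 0.0017), a call held in 27 of 27 settings. In the osteoblast sort it rose by 0.91 ± 0.18 (limma adjusted p = 0.0498), a call held in 7 of 27 settings and in 1 of 14 with a single array left out, that being untreated osteoblast replicate 2. With the replicate number as a block across the sorts its adjusted p was 0.0744. Among 18 signalling genes tested, no other was called with G-CSF in either sort. The response gene Vcam1, an adhesion molecule, fell by 2.04 ± 0.24 on the log2 scale in the endothelial sort (limma adjusted p = 0.00106).

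Among other family members, Il1f9, which encodes interleukin-36 gamma, ran from 5.52 to 5.84 on untreated and from 6.70 to 8.41 on G-CSF osteoblast arrays. Its change of 1.72 ± 0.38 had a limma adjusted p of 0.0881. Of the 6 tested genes for maturation and release, all 6 had a positive change in both sorts and 0 were called by limma. In the osteoblast and endothelial sort 1 and 2 had an unadjusted p under 0.05, beside 8.85% and 13.1% of all genes. Their median change was 0.33 and 0.63, beside -0.04 and -0.05 over all genes. Casp4, an inflammatory caspase, had the largest change, 1.32 ± 0.36 in the osteoblast sort (limma adjusted p = 0.226) and 1.05 ± 0.32 in the endothelial sort (limma adjusted p = 0.113). The part of neutrophil or monocyte RNA in these changes was not tested. Of the 6 feedback genes, which encode inhibitors such as Nfkbia, 0 were called with G-CSF. At an unadjusted p under 0.05 there were 0 and 1 of them, beside 8.85% and 13.1% of all genes.

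**Figure D4:**
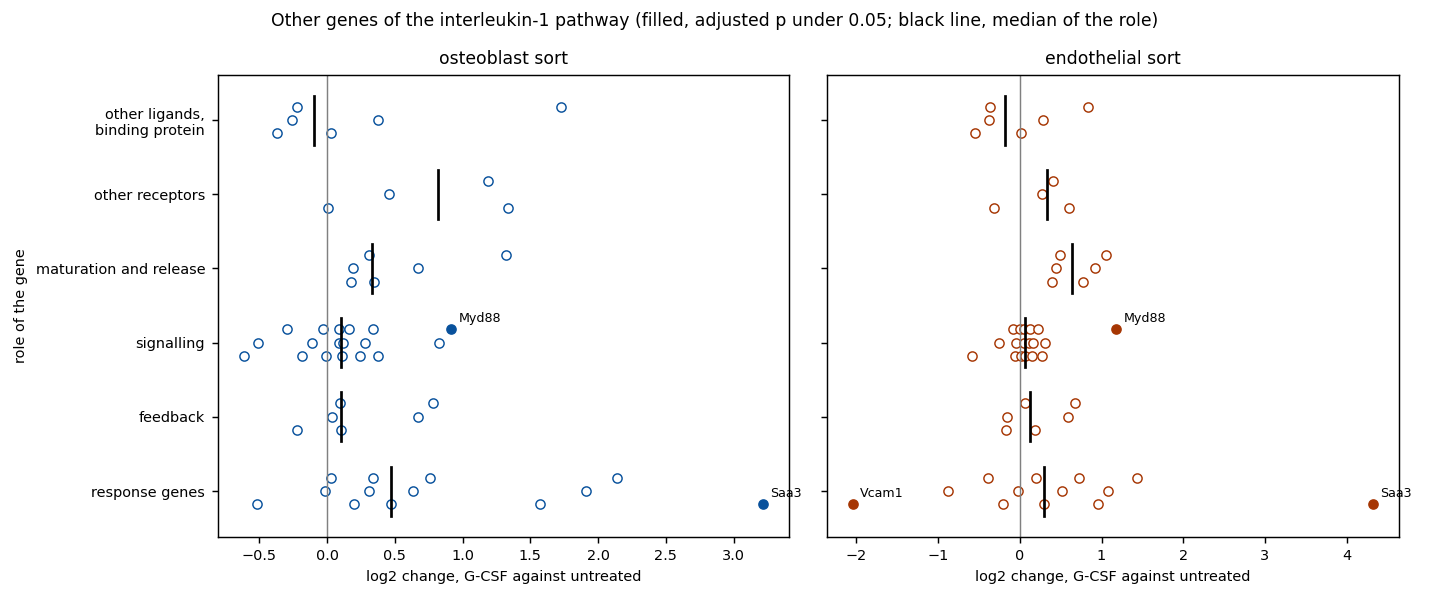
Fitted log2 change with G-CSF (horizontal axis) of the tested pathway genes by role, in the osteoblast and the endothelial sort, with called genes filled. Saa3, at 3.22 and 4.32, and Myd88, at 0.91 and 1.18, are filled in both sorts, and Vcam1, at -2.04, in the endothelial sort.

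Between the sorts, 5 of the 53 pathway genes were higher and 10 lower in the untreated osteoblast sort. After G-CSF 8 were higher and 11 lower in it. With 26.4% and 31.9% of all genes called in these comparisons, the pathway counts lie near the background. Sigirr, an inhibitory family receptor, was 8.12-fold lower in the untreated osteoblast sort (-3.02 ± 0.62, limma adjusted p = 0.00219) and 7.15-fold lower after G-CSF (-2.84 ± 0.62, limma adjusted p = 0.00275). The untreated osteoblast arrays were spread from 5.17 to 9.20, and the untreated difference was -4.09 without their replicate 2 and -2.07 without their replicate 3, both still called. Il1rl2, the interleukin-36 receptor, which also pairs with Il1rap, was higher in the osteoblast sort by 1.15 ± 0.36 untreated (limma adjusted p = 0.0288) and by 1.47 ± 0.36 after G-CSF (limma adjusted p = 0.00608). Its untreated call was held in 19 of 26 settings. It ended with quantile normalisation (adjusted p = 0.052), median centring (0.0597) and the decimals term (0.0638), and without untreated osteoblast replicate 1 or 3 or untreated endothelial replicate 2 or 3, with an adjusted p of at most 0.129. Il18bp, the soluble binder of interleukin-18, was lower by -0.82 ± 0.24 untreated (limma adjusted p = 0.0185), a call held in 23 of 26 settings. It ended with only the untreated arrays fitted (adjusted p = 0.0553) and without untreated osteoblast replicate 1 or 3, with an adjusted p of at most 0.0909. Among response genes Mmp13, a collagenase, was 15.7-fold higher in the untreated osteoblast sort. Sele and Icam1, adhesion molecules of activated endothelium, were lower there by -3.02 ± 0.39 and -2.15 ± 0.30.

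The genes of the fit whose levels followed each gene most closely over the 14 arrays were ranked by Pearson's r, as a description in which arrays share their group, sort and cell content. For Il1r2 they were AA467197 (r = 0.968), Bst1 (0.963) and Cdkn2d (0.96). For Il1b they were Atp8a1 (0.958), Adam8 (0.958) and Grina (0.943). For Il1rap they were Ccdc122 (0.954), Hspa13 (0.948) and Cspp1 (0.947). For Il18 the closest was Tex10 (0.92), for Il1rn Ankrd28 (0.903), for Il33 C1s1 (0.875) and for Il1r1 Rbms1 (0.851).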

How the data were processed

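Total RNA of 14 arrays was measured. Per the labels, the authors released cells with collagenase, sorted them into Trizol LS and made biotinylated cRNA from 100 ng of RNA. The deposited values are intensities on a linear scale, 1 per probe set, made with Affymetrix Expression Console 1.1 per the submitters' processing notes; the summarising algorithm was not given in the sources used here. Here the log2 of the deposited intensity plus 16 was taken. Of 45101 probe sets, 64 controls, 932 with several symbols and 9160 with none were left out, and 34945 had 1 symbol in the platform annotation. The dimmest probe sets, a fraction of 0.333 by mean, were dropped, and the brightest remaining one stood for its gene, giving 13453 genes. limma 3.58.1 in R 4.3.3 (lmFit, eBayes with trend) fitted 4 group means over all arrays, and p-values were adjusted by Benjamini-Hochberg over all genes. The steps were tested on simulated data. No depth exists for arrays, whose number limits the precision.

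Samples with the same replicate number deviated together from their group means, with correlations from 0.223 to 0.315 in the osteoblast and from 0.102 to 0.377 in the endothelial sort, so the number was treated as a possible pairing. Named genes were all members, up to 4 called genes with the largest change of each pathway list and comparison (or the largest where none was called), and the 3 genes most correlated with each member. Of those eligible, the text gives a selection. Members and lists were chosen with earlier results of these data known. Alternatives changed the pseudocount, normalisation, filter, probe set rule, arrays in the fit, replicate block and batch, and left out each array. The osteoblast tables of replicates 2 and 3 are printed with more decimals than the others, and this was used as a batch term.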

Additional observations from a re-analysis of the deposited data

Results flagged for a closer look

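Within groups of 4 arrays, 3 of 30 combinations of probe set and group had an end value far from the rest, where chance flags about 1 in 20 groups. Replicate 1 of the untreated endothelial sort was high on the main Il1rn probe set, at 7.58 against 6.92 to 6.95 on the others. Replicate 3 of the same group was high on a second Il1rn probe set, at 7.93. The main Il1rn probe set of that array was 6.92, so the 2 probe sets did not single out the same array. Replicate 3 of the G-CSF endothelial sort was high for Il1r1, at 10.97 against 9.85 to 9.96. Groups of 3 were not screened.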

How the results depend on the processing

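Over up to 27 settings, 858 of 919 values of the set's genes kept their side of the threshold, 36 of them with a change of sign in a value that was not called, 41 lost a call, 20 gained one and 0 reversed a call. Called genes of the set numbered 2 between untreated sorts (1 to 3 with 1 array left out, 1 with the replicate block across sorts or the decimals term, 4 without the pair of osteoblast replicate 2 and endothelial replicate 1, both untreated), 3 between G-CSF sorts (2 to 5 with 1 array left out, 5 with only the arrays compared), 1 for G-CSF in osteoblasts (0 to 1 with 1 array left out, 0 with probe sets fitted singly, only the arrays compared, either replicate block or the decimals term, with 4, 2, 4, 4 and 4 at an unadjusted limma p under 0.05) and 1 in endothelial cells (0 to 2 with 1 array left out, 2 with only the arrays compared). None was called for the difference between those changes in any setting. With 1 array left out, the counts of 5 and 2 came without replicate 1 of the G-CSF osteoblast sort. Calls over all genes ran from 2 to 475 around 31 for G-CSF in osteoblasts, the highest without untreated osteoblast replicate 2, from 28 to 660 around 215 in endothelial cells, and from 0 to 21 around 0 for the difference. Fitting all probe sets singly gave 7273 and 5946 in place of 4287 and 3553 between the sorts. Median centring moved the share of higher calls from 54.8% to 26.8% between G-CSF sorts, from 51.5% to 32.6% between untreated sorts and from 28.4% to 60% for G-CSF in endothelial cells. A replicate block ended the calls of Il1r2 for G-CSF in osteoblasts and between untreated sorts, of Il33 between G-CSF sorts and of Myd88 in osteoblasts, and changed no other call of a named gene. The cause of these shifts was not tested. Signal over background could not be assessed, since no detection values were used here.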
